A study of Mus musculus with 30 samples.

Results

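Lef1, Tcf7, Satb1, Sox4 and Tox, 5 genes for nuclear proteins that act in early lymphocytes, were taken by symbol from a count table of 24459 genes. The genes were chosen with earlier results of these libraries known, and which values they were chosen by is not recorded, so their RNA levels and differences are given as a description with no p-value. RNA was sequenced from sorted bone marrow cells of C57BL/6 mice that carried no mutant copy (Ikzf3+/+, WT), 1 mutant copy (Ikzf3+/m, het) or only mutant copies (Ikzf3m/m, homo) of the gene for Aiolos, a zinc finger factor of the Ikaros family, in which the mutant allele encodes the G158R substitution. There were 3 libraries for each genotype at the pre-pro B stage (B220+ AA4.1+ IgM- CD43+ CD24-) and 3 at the later pre-B stage (B220+ AA4.1+ IgM- CD43- CD24+), 18 in all. The second measurement was chromatin immunoprecipitation with sequencing (ChIP-seq) for Ikaros and Aiolos in WT and homo thymocytes, and in pre-B cells of both genotypes that were cultured on the Tst-4 stromal line from bone marrow cells positive for B220 and negative for IgM, in the presence of Flt3L, SCF and IL-7, with 1 library for each antibody, genotype and cell type. The labels give neither the age nor the sex of the mice and do not say whether libraries of a group came from separate mice, so errors here measure the spread between these libraries.

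Lef1 and Tcf7 encode LEF1 and TCF-1, closely related proteins that bind DNA through a high-mobility-group (HMG) box. They recruit beta-catenin, the effector of Wnt signalling, or corepressors of the TLE (Groucho) family, and both are known for their part in early T cell development, while LEF1 is also known in B cell precursors. Sox4 encodes an HMG-box factor of the SOX family that is needed for early B cell development in mice. Tox encodes another HMG-box protein, known for its part in the development of CD4 T cells and innate lymphoid cells. Satb1 encodes a chromatin organiser that binds AT-rich DNA and is abundant in thymocytes.

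Reads in genes numbered 1888871 to 9048055 per library. The shallowest library was pre-B homo replicate 3, and the pre-pro B homo libraries (8592557 to 9048055 reads) were all deeper than the WT ones (5443344 to 6492192 reads). By their Xist and Y-linked counts, het replicate 2 and homo replicates 1 and 3 were from XY cells at both stages and all others, including every WT library, from XX cells. Counts of B lineage genes matched the sort, with Ebf1, Pax5 and Cd79a higher in pre-B than in pre-pro B cells in each genotype. The pre-pro B libraries also held RNA of other cell types. The summed level of 11 NK and innate lymphoid markers was 120 to 129 CPM (counts scaled to library size) in WT, 214 to 340 in het and 289 to 474 in homo pre-pro B cells. The 9 plasmacytoid dendritic markers summed to 4220 to 4830 CPM in WT and 3270 to 3380 in homo, and the 8 myeloid markers to 94.3 to 101 and 204 to 275 CPM. In pre-B cells the NK sum was 3.04 to 4.13 CPM in WT and 25 to 28.7 in homo, and the myeloid sum 55.3 to 57.6 and 114 to 151 CPM. The plasmacytoid dendritic sum was 1090 to 1170 CPM in WT and 949 to 1030 CPM in homo pre-B cells. Of those 9 markers 6 passed the count filter there, and in homo Cox6a2 was called higher and Spib lower. Of the NK and myeloid lists only 2 markers each passed that filter in pre-B cells. Among them Klrb1c, Prf1 and Itgam were called higher in homo, where 15.9% of all genes were called. Itgam was also higher in pre-B than in pre-pro B cells in each genotype, while Mpo, Prtn3, Csf1r and Cebpa were lower. The T cell list, 12 measured genes, summed to 810 to 914 CPM in WT and 665 to 713 in homo pre-pro B cells, and to 139 to 147 and 82 to 110 CPM in WT and homo pre-B cells. The list was split in homo pre-pro B cells: of 11 genes tested, Cd247, Cd5 and Cd2 were called higher and Cd4 and Cd8a lower. The median log2 difference of the 11 was 0.35, against 0.01 over all genes, of which 22.4% were called. In WT pre-B cells Cd3e, Cd3g, Cd8a and Cd8b1 of that list were at 0 in all libraries, and of its 3 genes tested in pre-B cells Lck and Cd2 were called lower in homo. The part of these cell types in the results below was not tested. In bulk RNA, fewer cells of a type and less RNA per cell cannot be told apart.

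The regions just upstream of 3 of the genes are shown because Ikaros peaks of homo thymocytes reach over those of Satb1 and Sox4 but not over that of Lef1. Each is the 250 bases before the outermost start annotated by RefSeq on GRCm38.p6, 5′ to 3′ on the gene's strand. Capitals mark the core that Ikaros proteins bind, GGGAA, or its reverse complement TTCCC. The Satb1 window (chr17:51833291-51833540, minus strand) and the Sox4 window (chr13:28953700-28953949, minus strand) each held 2 matches, and the Lef1 window (chr3:131110047-131110296, plus strand) held 0. A homo thymocyte peak also covered all 250 bases before the outermost start of Tcf7 in the RefSeq table, a window with 1 match that lies within the annotated span of the gene and is not printed. At inner annotated starts of Satb1, windows at least partly under homo thymocyte peaks held 0 to 2 matches and are not printed either. The inner window with 0 matches had 228 bases covered.
Satb1: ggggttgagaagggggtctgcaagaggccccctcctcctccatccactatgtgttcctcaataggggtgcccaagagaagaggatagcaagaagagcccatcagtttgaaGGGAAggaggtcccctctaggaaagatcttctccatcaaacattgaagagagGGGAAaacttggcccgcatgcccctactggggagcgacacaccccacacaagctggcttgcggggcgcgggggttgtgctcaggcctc
Sox4: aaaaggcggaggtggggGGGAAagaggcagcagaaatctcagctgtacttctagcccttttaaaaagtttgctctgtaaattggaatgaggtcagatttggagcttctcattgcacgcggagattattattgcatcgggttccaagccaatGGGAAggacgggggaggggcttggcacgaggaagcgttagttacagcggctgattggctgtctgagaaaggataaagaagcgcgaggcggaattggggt
Lef1: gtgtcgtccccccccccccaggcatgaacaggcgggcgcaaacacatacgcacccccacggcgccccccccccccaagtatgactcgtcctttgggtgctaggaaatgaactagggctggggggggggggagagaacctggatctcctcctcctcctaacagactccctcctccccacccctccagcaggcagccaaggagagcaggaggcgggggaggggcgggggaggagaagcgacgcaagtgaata
Among all 32851 promoter windows of this length in the table, 56.2% held at least 1 match on either strand, so a match is common and is no sign of binding. The homo thymocyte peak covered all 250 bases of the Satb1 window and 176 bases of the Sox4 window. In the other Ikaros lists 0 bases of any of the 3 printed windows lay in a peak. Although no peak reached the Lef1 window, the homo thymocyte list held one just inside Lef1, centred 1.3 kb from the start.

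Lef1 levels were several-fold higher at the pre-B than at the pre-pro B stage, and in pre-B cells they were lower with the mutation. Its level was 26.3, 22.6 and 22.7 CPM in WT pre-pro B cells and 145, 157.5 and 188 CPM in WT pre-B cells, a log2 difference of 2.76 ± 0.27 (standard error of the fit, n = 3 libraries each). In het pre-B cells the levels were 79.5, 83.5 and 80.5 CPM, and in homo pre-B cells 84.6, 139.7 and 114 CPM. All het and all homo pre-B libraries lay below the lowest WT library, and the homo libraries lay above the highest het library. The log2 difference from WT was -1.0 ± 0.17 in het and -0.52 ± 0.17 in homo pre-B cells. Homo exceeded het by 0.48 ± 0.18, and by 0.29 to 0.66 without single libraries. The lowest homo library (84.6 CPM) lay close to the highest het library (83.5 CPM), so the order of the 2 mutant groups is weakly held. Leaving out each of the 9 libraries in turn, the difference from WT stayed between -1.08 and -0.89 in het and between -0.72 and -0.34 in homo. With a term for sex, the homo difference was -0.41. In pre-pro B cells the het libraries (31.9, 23.4 and 12.7 CPM) and the homo libraries (23.4, 22.4 and 40.02 CPM) overlapped the WT range, with log2 differences of -0.15 ± 0.36 and 0.22 ± 0.34.

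Tcf7 was low throughout, with 14 to 162 counts in a library, and in pre-B cells it was lower in het but not separated from WT in homo. The WT levels were 8.75, 4.59 and 8.18 CPM in pre-pro B and 9.27, 12.9 and 11.4 CPM in pre-B cells. The het pre-B levels were 4.52, 3.36 and 5.66 CPM, below every WT and every homo pre-B library. The homo pre-B levels were 9.82, 10.9 and 8.78 CPM and overlapped the WT range. The log2 difference from WT was -1.27 ± 0.23 in het and -0.15 ± 0.22 in homo pre-B cells, and homo exceeded het by 1.12 ± 0.24. In pre-pro B cells Tcf7 was 8.29, 14.1 and 11.7 CPM in het and 7.04, 10.97 and 17.9 CPM in homo, overlapping WT, with log2 differences of 0.67 ± 0.38 and 0.70 ± 0.37. From pre-pro B to pre-B cells the log2 difference was 0.63 ± 0.31 in WT, -1.30 ± 0.33 in het and -0.23 ± 0.30 in homo. Within pre-B cells Tcf7 and Lef1 levels were correlated over 9 libraries (Pearson r = 0.78 on log2 CPM), and over all 18 libraries r was -0.03. Those libraries share the genotype groups and their depth. Skp1, under its older name Skp1a in the count table, overlaps the annotated span of Tcf7 and had 10097 counts over the 18 libraries.

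Satb1 differed from Lef1 and Tcf7 in direction at the pre-B stage, where it was higher in both mutant groups. At the earlier stage it was higher in homo by a smaller amount, and het was barely above WT. In pre-B cells its level was 126, 149 and 146 CPM in WT, 231, 219 and 187 CPM in het, and 257, 242 and 321 CPM in homo. The 3 genotypes did not overlap, in the order WT, het, homo. The log2 difference from WT was 0.60 ± 0.14 in het and 0.97 ± 0.14 in homo, and homo exceeded het by 0.37 ± 0.14. Without single libraries the homo difference ranged from 0.83 to 1.05, and with a sex term it was 0.84. In pre-pro B cells the levels were 179, 187 and 183 CPM in WT, 189.8, 197 and 205 CPM in het, and 207, 229 and 243 CPM in homo. These groups did not overlap either, but the log2 differences were smaller, 0.07 ± 0.06 in het and 0.26 ± 0.06 in homo. The het difference was close in size to its standard error. The share of all genes whose groups did not overlap was not counted, so non-overlap is a description only, here and for the other members. The homo difference was larger in pre-B than in pre-pro B cells by 0.69 ± 0.16 on the log2 scale. Satb1 was lower in pre-B than in pre-pro B cells in WT (-0.40 ± 0.11) and not lower in het (0.13 ± 0.11) or homo (0.30 ± 0.11, or 0.10 with library size as a covariate).

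Sox4 followed the stage and differed little with genotype. Its level was 114, 109.9 and 99.1 CPM in WT pre-pro B cells and 438, 447 and 406 CPM in WT pre-B cells, a log2 difference of 1.98 ± 0.13. The same difference was 1.71 ± 0.13 in het and 1.59 ± 0.13 in homo. The het levels were 115, 127 and 97.2 CPM in pre-pro B and 321, 315 and 454 CPM in pre-B cells, overlapping WT at both stages. The homo levels were 129, 131 and 146 CPM in pre-pro B cells, above every WT and het library, with a log2 difference from WT of 0.28 ± 0.09. In pre-B cells they were 425, 411 and 353 CPM and overlapped WT, with a difference of -0.11 ± 0.15. Sox4 and Lef1 varied together over the 18 libraries (r = 0.95), and within a stage r was 0.68 over the 9 pre-pro B libraries and 0.42 over the 9 pre-B libraries.

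Tox was near the limit of these libraries, with 4 to 35 counts in each. Its level was 1.68, 1.31 and 1.54 CPM in WT, 2.18, 2.81 and 2.37 CPM in het and 1.98, 2.97 and 3.87 CPM in homo pre-pro B cells. Both mutant groups lay above WT there, with log2 differences of 0.69 ± 0.34 in het and 0.91 ± 0.32 in homo. Over the 9 pre-pro B libraries Tox varied with Tcf7 (r = 0.90) and with Satb1 (r = 0.85). The summed NK markers were higher in the same het and homo pre-pro B groups, and their part in the Tox, Tcf7 and Satb1 levels was not tested. In pre-B cells Tox was 2.24, 1.08 and 4.03 CPM in WT, 0.779, 0.960 and 2.32 CPM in het, and 1.58, 4.50 and 2.93 CPM in homo, and no genotype was separated from WT.

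**Figure D1:**
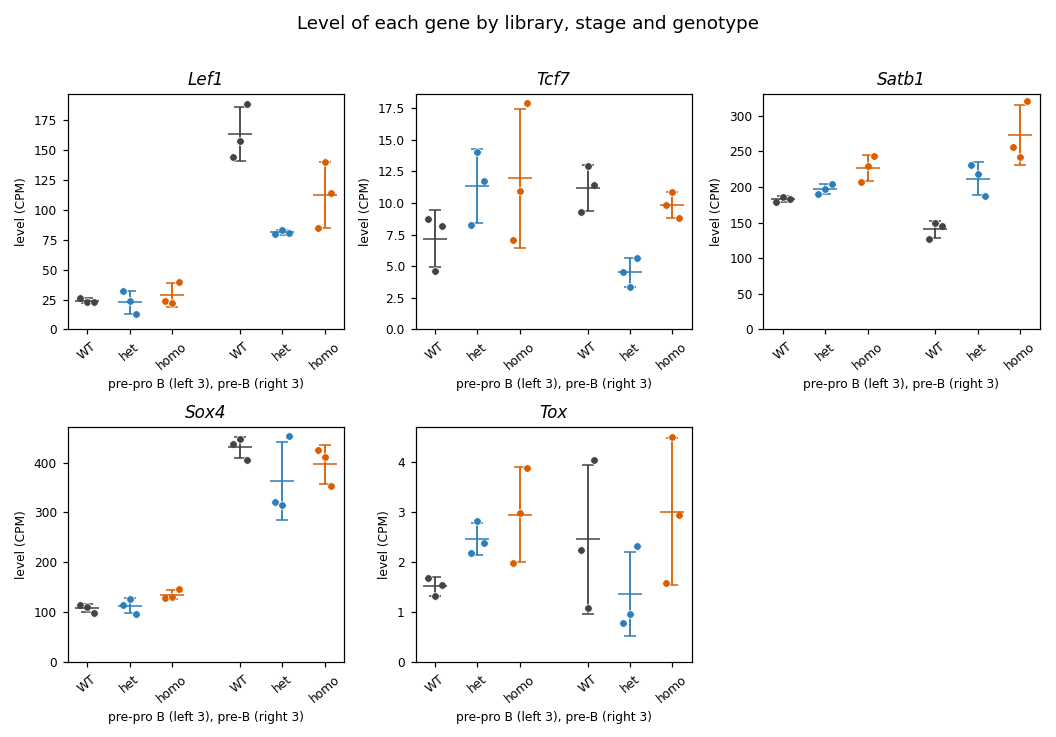
Level of each gene in CPM by library (points), with the mean (wide dash) and SD (bars) of 3 libraries, for WT, het and homo in pre-pro B cells (left) and pre-B cells (right). In pre-B cells all Lef1 points of het and homo lie at or below 139.7 CPM while WT starts at 145 CPM, and the Satb1 points are lowest in WT and highest in homo.

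**Figure D2:**
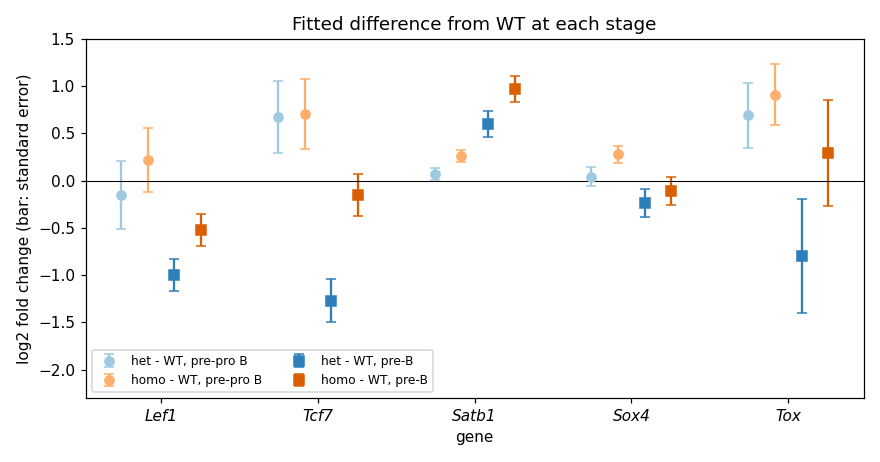
Fitted log2 difference from WT for each gene, with its standard error as the bar, for het and homo in pre-pro B cells (circles) and pre-B cells (squares). Lef1 and Tcf7 are lowest in het pre-B cells at -1.0 and -1.27, and Satb1 is highest in homo pre-B cells at 0.97.

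A call here means an adjusted p under 0.05 in edgeR's quasi-likelihood test with Benjamini-Hochberg adjustment over all genes tested. Since the members were chosen with such results known, nothing is read from their calls, which stand beside the share of all genes called. In pre-B cells 3 members (Lef1, Tcf7, Satb1) were called between het and WT against 6.18% of all genes, 1 (Satb1) between homo and WT against 15.9%, and 1 (Tcf7) between homo and het against 1.89%. In pre-pro B cells 0 members were called between het and WT against 0.558% of genes, 1 (Satb1) between homo and WT against 22.4%, and 0 between homo and het against 0.0164%. Between stages 3 members were called in WT (Lef1, Satb1, Sox4) against 64.3% of genes, 3 in het (Lef1, Sox4, Tcf7) against 68.1%, and 3 in homo (Lef1, Satb1, Sox4) against 69.1%. For the difference of the homo effect between stages, Satb1 was called against 14.5% of genes. For the counts of 0, DESeq2 also called 0 members in both comparisons, and the number of genes with an unadjusted edgeR p under 0.05 was 2505 between het and WT and 1470 between homo and het.

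Among 13 genes used as TCF/beta-catenin targets, 8 passed the count filter in pre-B cells, and between homo and WT 2 rose, 2 fell and 4 did not pass the test (median log2 difference -0.01, against 0.02 over all genes, of which 15.9% were called). Axin2, a negative feedback gene of Wnt signalling, was 7.03, 7.72 and 7.25 CPM in WT pre-B cells, 1.25, 1.44 and 2.32 CPM in het, and 0.792, 0.620 and 0 CPM in homo. The mutant groups lay below WT and differed from it by -2.09 ± 0.31 in het (edgeR adjusted p = 0.00391) and -3.53 ± 0.40 in homo (edgeR adjusted p = 0.000269). Only 30 counts in het and 9 in homo lie behind these levels. Lgr5, a receptor for R-spondins, moved the other way: 175, 181 and 187 CPM in WT and 274, 288 and 362 CPM in homo pre-B cells, a rise of 0.77 ± 0.15 (edgeR adjusted p = 0.00623). The calls of Axin2 and Lgr5 held in every alternative, while those of Ccnd1, a cyclin (-0.86), and Cd44, a cell surface receptor (0.47), did not. In pre-B het cells Axin2 was the 1 target called.

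Among 27 partners and corepressors, 25 were tested in pre-B cells; 1 rose and 3 fell in homo, and 2 fell in het (medians -0.12 and -0.15, against 0.02 and 0.01 over all genes). Of all genes 15.9% were called in homo and 6.18% in het, so these counts are near the background. Tle2, a Groucho corepressor, was 3.84, 4.31 and 3.55 CPM in WT, 0.779, 0.720 and 0.290 CPM in het and 0.159, 0.465 and 0.586 CPM in homo pre-B cells. It fell by 2.71 in het (SE 0.39, edgeR adjusted p = 0.00336) and by 3.40 in homo (SE 0.46, edgeR adjusted p = 0.000771) on the log2 scale, with 10 counts in het and 5 in homo. Tle6, a further member of that family, fell by 2.07 in homo (SE 0.39, edgeR adjusted p = 0.00547). Its fall of 1.44 in het was called in 8 of 17 alternatives. Tcf7l2, which encodes the relative TCF-4, rose by 0.92 ± 0.19 in homo pre-B cells (edgeR adjusted p = 0.00805), from 14.7, 16.9 and 20.5 CPM in WT to 30.6, 33.3 and 34.0 CPM. Tle1, also of the Groucho family, fell by 0.83 in homo, a call that was lost in 3 of 17 alternatives. The level of Ctnnb1, the gene for beta-catenin, was 364 to 386 CPM in WT and 374 to 486 CPM in homo pre-B cells and was not called.

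In pre-pro B cells 24 partners were tested and 1 rose (Ctbp2) and 4 fell, among them Ctnnb1, Aes and Ctbp1, in homo, near the 22.4% of all genes called there. Ctnnb1 fell by 0.24 (edgeR adjusted p = 0.0236), a call held in 8 of 17 alternatives, and the calls of Aes, Ctbp1 and Ctbp2 held in 10, 12 and 15. Of 5 targets tested, Myc, a growth regulator, rose by 1.2 (edgeR adjusted p = 0.0286, held in 10 of 17) and Ccnd1 fell by 0.51.

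**Figure D3:**
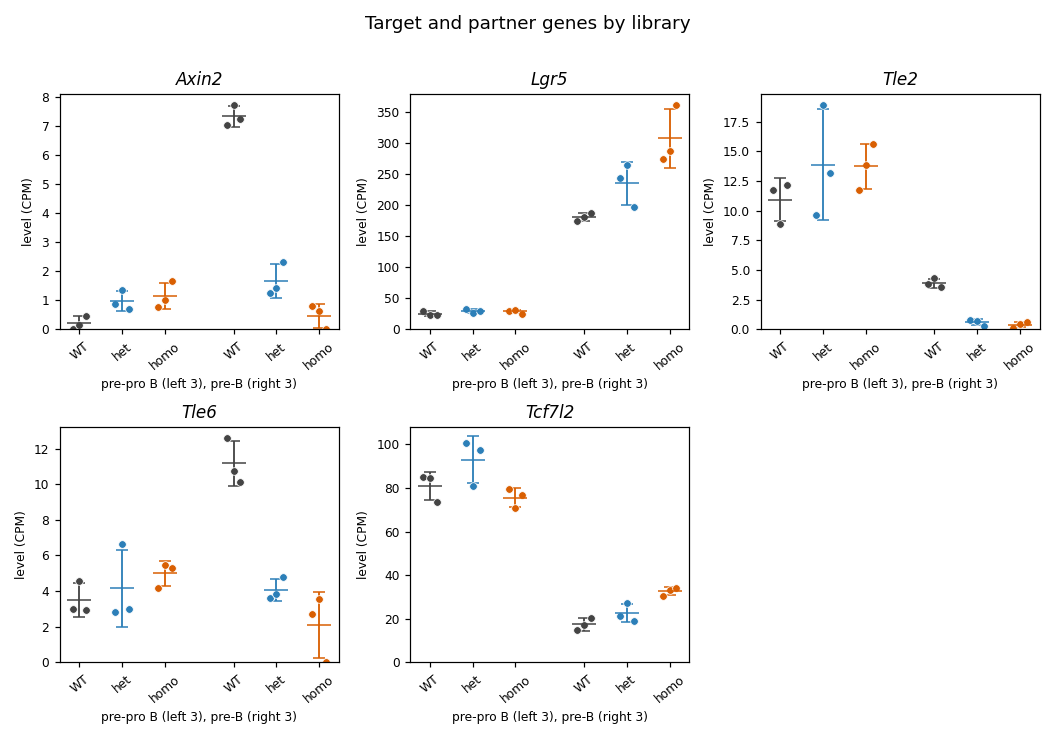
Levels in CPM of Axin2, Lgr5, Tle2, Tle6 and Tcf7l2 by library (points), with mean and SD of 3 libraries, in pre-pro B cells (left) and pre-B cells (right). Axin2, Tle2 and Tle6 are highest in WT among the pre-B groups, while Lgr5 and Tcf7l2 are lowest in WT.

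Of 15 relatives of the 5 genes, 9 were tested in pre-B cells; 2 rose and 2 fell in homo, where 15.9% of all genes were called. Hmgb3, an HMG-box protein, rose by 0.58 and Sox5, of the SOX family, fell by 1.41 in homo pre-B cells, and these calls held in 14 and 11 of 17 alternatives. In homo pre-pro B cells 10 relatives were tested and Sox12 (0.71) and Hmgb3 (1.62) rose, near the 22.4% of all genes called.

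Of 25 regulators of lymphoid progenitors, 21 were tested in pre-B cells; 2 rose and 3 fell in homo, and 1 fell in het, against 15.9% and 6.18% of all genes called. Bcl11a, a zinc finger factor of early lymphocytes, fell by 1.03 ± 0.17 in homo (edgeR adjusted p = 0.00297), Zbtb7b, which encodes ThPOK, fell by 2.09 ± 0.35 (edgeR adjusted p = 0.00304), and Gfi1, a transcriptional repressor, fell by 1.37 ± 0.26 (edgeR adjusted p = 0.00538). These 3 calls held in 17 of 17 alternatives. In homo pre-pro B cells 24 were tested, of which 7 rose and 5 fell, against 22.4% of all genes called. The risers with the largest differences were Tbx21 (3.02), Eomes (2.87), Gata3 (1.69) and Id2 (1.38), factors of T or innate lymphoid cells, and Tbx21 and Eomes also belong to the NK marker list that was higher there. Their calls held in 16, 15, 9 and 16 of 17 alternatives, so that of Gata3 was the least stable.

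The genes whose log2 CPM was most like each member over the 18 libraries, among 12439 others, were Alpl (r = 0.982) for Lef1, Cish (r = 0.816) for Tcf7, Arl6 (r = 0.959) for Satb1, Tcf3 (r = 0.990) for Sox4 and Mrpl44 (r = 0.748) for Tox. Over the 9 pre-B libraries alone they were Mettl7a1 (r = 0.975), Sf3a1 (r = 0.971), Spata6 (r = 0.986), Jund (r = 0.968) and Skida1 (r = 0.946), in the same order. The highest of so many correlations is high by selection. The levels behind them share libraries and depth.

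Ikaros peaks were counted in a window of 50 kb on either side of each gene. In cultured pre-B cells 2 peaks lay near the 5 genes in WT and 4 in homo, and in thymocytes 10 in WT and 19 in homo. The lists themselves differed in size, with 3683 and 8609 peaks in WT and homo pre-B cells and 3572 and 8221 in thymocytes, and with 1 library each the difference has no replicate check. In WT pre-B cells 2 members had a peak (Lef1 and Tcf7), against 24.9% of all 24343 genes with a position, and in homo pre-B cells 3 (Lef1, Sox4 and Tox) against 46.2%. In thymocytes all 5 had one in both genotypes, against 24.4% of genes in WT and 49.9% in homo. Longer genes have wider windows, and these shares were not matched for gene length. The annotated spans of the members ran from 4.78 kb for Sox4 to 305 kb for Tox. Fold enrichment and -log10 q below are the peak caller's values as the authors deposited them. The 4 Aiolos lists were short, with 431 and 24 peaks in WT and homo pre-B cells and 25 and 184 in thymocytes, and held 0 peaks in these windows. Within 100 kb, the homo thymocyte Aiolos list had 2 peaks, both beyond the far end of Lef1 and nearest to another coding gene, Sgms2.

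For Lef1 (chr3:131110297-131224357, mm10, plus strand), 1 region 97.8 kb downstream of the start, inside the gene, was in all 4 lists. Its peak was chr3:131207676-131207964 in WT pre-B cells (fold 5.56, -log10 q 8.82) and chr3:131207710-131207921 in homo pre-B cells (fold 4.04, -log10 q 4.16). In thymocytes the fold was 6.85 in WT and 7.43 in homo. A peak centred 1.3 kb inside the gene (chr3:131110788-131112347, fold 4.39, -log10 q 4.82) was in the homo thymocyte list only. Outside the window, 175.9 kb from the start, a second region was also in all 4 lists, with folds of 6.84 and 9.21 in WT and homo pre-B cells and 8.75 and 8.22 in thymocytes. Its nearest coding gene was Cyp2u1, 3.98 to 4.14 kb away. Another region, 207.7 kb from the start, was in both homo lists (fold 7.27 in pre-B cells and 9.22 in thymocytes) and in neither WT list. Its nearest coding gene was Sgms2, 0.279 to 0.521 kb away. Neither of these outer regions was linked to Lef1 by any measurement here.

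For Tcf7 (chr11:52246527-52283383, minus strand), the WT pre-B list had 1 peak and the homo pre-B list had none. The WT peak lay 61.0 kb from the start beyond the far end of the gene, with fold 4.06 and -log10 q 3.75. Its nearest coding gene was Skp1, 7.96 kb away. The WT thymocyte list had 4 peaks in the window and the homo list 6. A peak over the start in homo thymocytes (chr11:52282048-52283399, fold 5.96, -log10 q 10.3) had no counterpart in WT thymocytes. The region 7.7 kb inside the gene had folds of 5.57 in WT and 7.54 in homo.

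For Satb1 (chr17:51736187-51833290, minus strand), neither pre-B list had a peak in the window. In thymocytes a region near the start was in both lists, with fold 5.06 in WT and 5.55 in homo. The WT peak (chr17:51831116-51831433) was centred 2.0 kb inside the gene and did not reach the start. The homo peak (chr17:51831081-51833925) was wider, covered the start and reached over the sequence printed above. Sox4 (chr13:28948919-28953699, minus strand) had 0 peaks in WT pre-B cells and 1 in homo pre-B cells. That peak was centred 4.6 kb upstream, in a region shared with both thymocyte lists (fold 3.59 in homo pre-B cells, 3.25 and 4.75 in WT and homo thymocytes). In homo thymocytes a further peak (chr13:28953295-28953875, fold 3.48) covered the start of Sox4. Tox (chr4:6686353-6991557, strand not in the table used, so distances are from the end with the higher coordinate) had 0 peaks in WT and 2 in homo pre-B cells, the stronger with fold 6.27 and -log10 q 12.2 within the gene. A region 0.5 kb from that end was in both thymocyte lists, with folds of 7.67 and 7.06.

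Merging overlapping peaks of the 4 lists gave 23 regions in these windows, of which 1 was in all 4 lists, 11 were in homo thymocytes only and 5 were in a pre-B list. In thymocytes 8 of the 10 WT peaks overlapped a homo peak by at least 1 base, and in pre-B cells 1 of 2 did. The same shares over all peaks of the lists were not counted, so these counts are a description only.

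**Figure D4:**
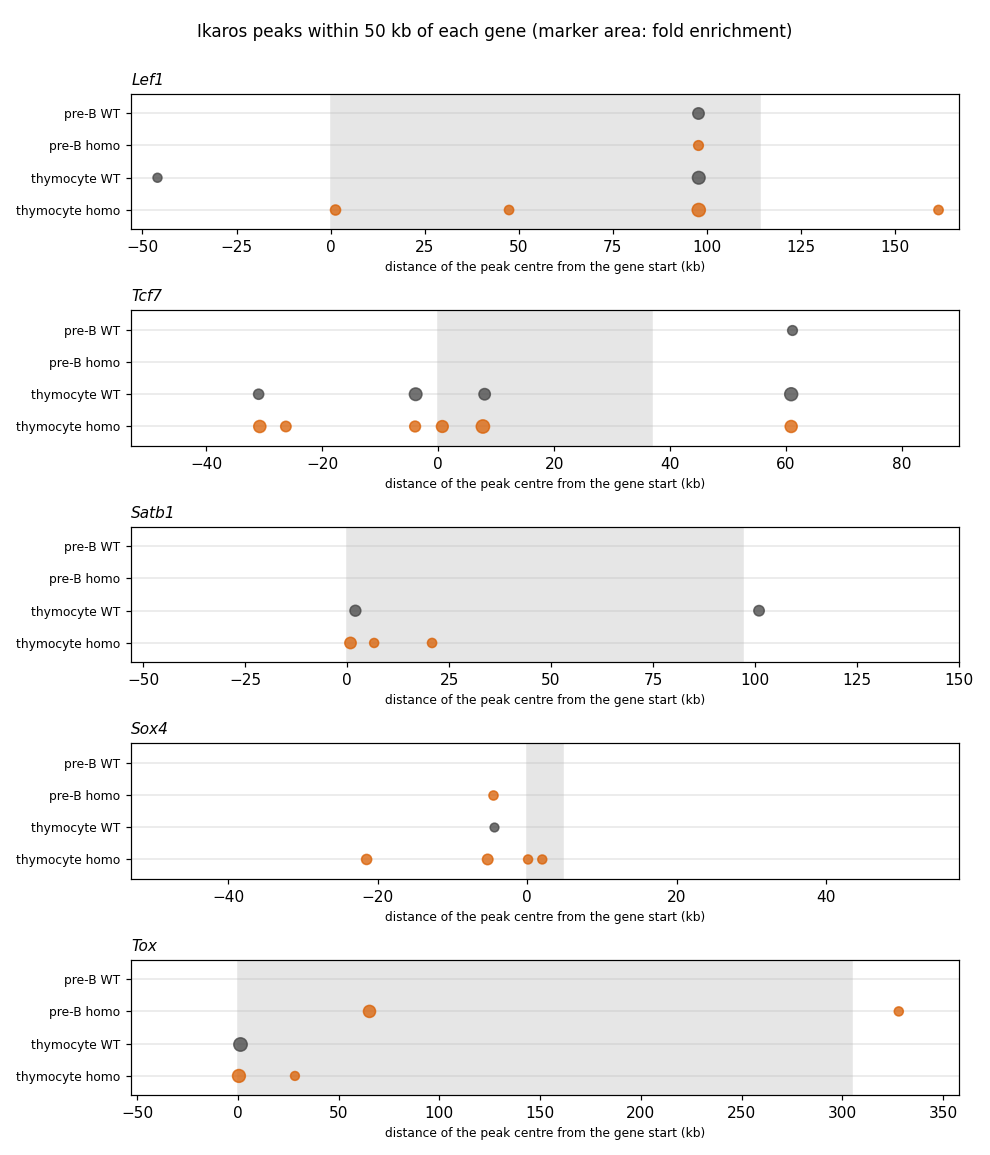
Ikaros peaks within 50 kb of each gene by the distance of the peak centre from the gene start in kb, for WT (grey) and homo (orange) pre-B cells and thymocytes; grey shading is the annotated gene and the marker area is the fold enrichment. The pre-B lists hold 2 and 4 peaks in all, and none at Satb1, against 10 and 19 in thymocytes.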

How the data were processed

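The deposited RNA files hold raw read counts per gene symbol, 24459 genes and 5 entries naming no gene, which entered neither library sizes nor tests. Unassigned reads outside any gene took 29.8% to 40.1% of a library. The deposited peak lists hold a score, a fold enrichment (a ratio), and -log10 p and -log10 q per peak, made by the authors. Per the labels' protocols, RNA was poly(A) selected and libraries made with the NEBNext Ultra kit. Tools listed in the submitters' processing notes, with no role, are MACS2 2.1.1, HISAT2 2.1.0 and STAR 2.7.0, and the build is mm10. The sources used here do not say whether counting used strand.

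Counts were normalised by TMM and tested in edgeR 4.0.16 (R 4.3.3), with the 9 libraries of a stage in genotype comparisons and all 18 in stage comparisons, after filterByExpr, and Benjamini-Hochberg adjustment over all genes tested. DESeq2 1.42.0, other filters, scalings, covariates and leaving out each library were alternatives. The pipeline was run on simulated counts with the same spread for every gene and changes only in genes with a mean of at least 5 CPM. That run does not cover Tox, or Axin2 and Tle2 in pre-B cells, and its spread was not fitted to each stage. Levels are CPM on TMM library sizes, and log2 CPM for correlations used a prior count of 2. Named list genes are called ones with the largest log2 difference per list and comparison. Gene positions and promoters come from RefSeq (GRCm38.p6); 24343 symbols matched a position and 4 of the 5 members a promoter. Some genes of the lists are not reported here. The members and lists were chosen with earlier results of these data known.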

Additional observations from a re-analysis of the deposited data

Results flagged for a closer look

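The homo against WT difference was tested for a change between stages, pre-B minus pre-pro B on the log2 scale, in 1 edgeR fit of 18 libraries, and the genes here passed an adjusted p of 0.05. Satb1 is among them at 0.69, given as a description because it was chosen with such results known. Of the partners and corepressors, Tcf7l2 had 1.05, Ctnnbip1 -1.10, Tle1 -0.87, Tle2 -3.71 and Tle6 -2.53. Of the targets, Axin2 had -5.77, with 4 counts in WT pre-pro B cells in all, and Cd44 had 0.78. Of the relatives, Sox5 had -2.40, Hmgb3 -1.06 and Cux1 -0.53. Of the regulators, Bcl11a had -0.75, Runx3 0.56, Zbtb7b -1.82, Gfi1 -2.09 and Id2 -1.49. All of these kept their sign in every alternative run, but the calls of Runx3, Ctnnbip1 and Hmgb3 held in 20, 22 and 24 of 25.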

How the results depend on the processing

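The called member differences kept their direction in every alternative, while some that were not called changed sign. Lef1 between het and WT in pre-pro B cells (-0.15) was 0.04 with the library size covariate and 0.15 without het replicate 3. Tcf7 between homo and WT in pre-B cells (-0.15) was 0.04 with the sex term, and its stage difference in homo (-0.23) was 0.18 without pre-pro B homo replicate 3. Tox between homo and WT in pre-B cells (0.29) ranged from -0.33 to 0.85 without single libraries. Calls of members were less stable: Satb1 between homo and WT in pre-pro B cells was lost in the fit of all 18 libraries, with library size as a covariate and with a sex term (0 members called in each), Tcf7 between homo and het in pre-B cells was lost in the fit of all 18 libraries and with a replicate block (0 each), and 2 members instead of 1 were called between homo and WT pre-B cells by DESeq2 and with the library size covariate. Satb1 between het and WT in pre-B cells was called in 3 of 9 fits that left out a library and was lost under the block; Tcf7 between homo and het was called in 2 of 9.

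Genes called, for het against WT, homo against WT and homo against het, depended on the model. In pre-pro B cells (68, 2730 and 2) DESeq2 gave 471 and 48 for the first and last, no count filter 251 and 43, the fit of all 18 libraries 187, 1146 and 10, the block 119 and 20 for the first and last, the library size covariate 40, 213 and 0, and the sex term 7, 605 and 0. In pre-B cells (705, 1811 and 216) DESeq2 gave 1079 and 507 for the first and last, the fit of all 18 libraries 1584, 2940 and 662, the block 383, 1125 and 71, the library size covariate 3005, 3456 and 1604, and the sex term 359 for the last. For the counts of 0 between homo and het, 1305 genes with the covariate and 1095 with the sex term had an unadjusted p under 0.05.

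Leaving out each library gave 0 to 1901, 1112 to 3646 and 0 to 223 genes in pre-pro B cells, 336 to 1377, 1055 to 2097 and 52 to 374 in pre-B cells, and 1349 to 2155 for the difference between stages. Members called ranged over 0 to 2 (homo against WT, pre-pro B), 1 to 3, 1 to 2 and 0 to 1 (pre-B), 3 to 4 (stages in WT and in het) and 2 to 3 (stages in homo). Same-numbered libraries of a genotype had the same sex at both stages, and whether they share a mouse is not given. Correlations of same-numbered deviations ran from -0.52 to 0.24 over all comparisons and from -0.05 to 0.24 between stages. Between stages the own number matched best for 3 libraries in WT, 1 in het and 2 in homo. Pairing across stages is therefore unsettled, and the main stage fits took the libraries as unpaired.

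Peaks near the genes, in WT pre-B cells, were 1 within 10 kb and 1 with -log10 q of at least 5. In homo pre-B cells they were 7 within 100 kb and 1 at that q, and in homo thymocytes 29 and 10. WT pre-B peaks overlapping a homo peak were 2 within 100 kb and 0 at that q. The cause of these changes was not tested. Tox counts and the 1888871 reads of pre-B homo replicate 3 limit the precision.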
